A study of Mus musculus with 72 samples.

Results

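*Csmd1* and *Csmd3* are 2 of the 107 recurrent DNA break cluster (RDC) windows listed for this study, and both are large genes of the CUB and Sushi multiple domains (CSMD) family. A window is the 1 Mb of GRCm38 around the RDC position, and the members were taken by name. The *Csmd1* window, chr8:16300001-17300000, held 317 junctions in 43 of 60 libraries. The *Csmd3* window, chr15:47700001-48700000, held 71 junctions in 32 of 60 libraries.

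The CSMD proteins are very large transmembrane proteins whose extracellular part is built from CUB and Sushi domains, and CSMD1 is known as an inhibitor of complement that is expressed in the brain. Their genes are among the longest of the genome. In neural progenitors, RDCs lie in long, transcribed genes, and breaks there become more frequent when replication is slowed by low doses of the DNA polymerase inhibitor aphidicolin (Aph). Free ends are joined by classical end joining, which needs Xrcc4, the partner of DNA ligase IV, or by alternative routes. DNA polymerase theta (Pol θ), the target of the inhibitor ART558, joins ends through short shared sequences, or microhomologies.

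The junctions were mapped with LAM-HTGTS, an assay of translocation sequencing by linear amplification. Cas9 cuts a bait site, a primer beside the cut is extended through the joint, and the sequence beyond, the prey, shows where in the genome the bait end was ligated. There were 45 libraries of the NestinCre+ Xrcc4-/- p53-/- ES cell-derived neural progenitor line Nxp010, called Xrcc4/p53-deficient below, and 15 libraries of primary wild-type neural stem and progenitor cells from late C57BL/6J embryos. The Xrcc4/p53-deficient cells had received DMSO, ART558, Aph or Aph plus ART558, and the wild-type cells Aph or Aph plus ART558, with no wild-type DMSO or ART558 library among those analysed here. Aph was given at 0.5 µM for 72 h and at 0.25 µM for a further 24 h, and ART558 at 5 µM and then 2.5 µM over the same times. All Xrcc4/p53-deficient libraries came from 1 line, which per the study carries a gain of chromosome 8 and in which both the end-joining factor and p53 are absent under every treatment, controls included. Markers of the cell type could not be checked in these DNA data.

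The 60 libraries held 591366 junctions, from 133 to 36999 per library (median 7737), on 11 sequencing runs. Density was counted as junctions in the window per 1000 junctions off the bait chromosome, of which the 57 libraries used had 668 to 8489 (median 2853). The 3 libraries left out of densities, 1 each with ART558 (chr8 bait), DMSO (chr14 bait) and Aph plus ART558 (chr8 bait), held 28, 137 and 339. At such depths most values rest on fewer than 10 junctions. Nothing in the labels says that the replicates were separate cultures, so p-values measure only the spread between these libraries.

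Each bait was set by 1 guide, and the 4 guides are shown because the place of the bait decides which libraries can be compared for *Csmd1*. The capitals mark the protospacer adjacent motif (PAM), which follows the guide in the genome.
chr6 bait: gagggttggaaatgctcgtaTGG
chr8 bait: gtcgaccatatgctaatcttAGG
chr12 bait: attccgccaaccctcgagatAGG
chr14 bait: ggcttagttatagtaggggcTGG
The chr6 guide lies at chr6:70950106-70950125 on the minus strand, 6423 bp from *Foxi3*. The chr12 guide lies at chr12:12994038-12994057 on the plus strand, 52140 bp from *Mycn*, and the chr14 guide at chr14:83268830-83268849 on the plus strand, 1174717 bp from *Pcdh17*. The chr8 guide lies at chr8:59477701-59477720 on the minus strand, 563405 bp from the nearest gene, *BC030500*. It shares its chromosome with *Csmd1*, whose window ends 42.18 Mb below the break, so the *Csmd1* junctions of this bait were counted apart. No bait lies on chromosome 15, and *Csmd3* was counted with all 4 baits.

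Both windows lie wholly inside their genes. *Csmd1* (ENSMUSG00000060924.15, chr8:15892537-17535586, minus strand) spans 1643.05 kb, and *Csmd3* (ENSMUSG00000022311.15, chr15:47580637-48792063, minus strand) spans 1211.427 kb. The *Csmd1* window holds 10 of the 74 merged exons of its gene, which make up 0.4065% of its bases, and 2 of its 317 junctions fell in an exon. The *Csmd3* window holds 43 of 73 exons, 0.885% of its bases, and 0 of its 71 junctions fell in one. The junctions of both genes were thus almost all intronic. GC content was 39.97% in the *Csmd1* window and 35.3% in the *Csmd3* window. Soft-masked repeats covered 27.5% of the *Csmd1* window and held 19.2% of its junctions, against 37.6% and 33.8% in *Csmd3*. Both RDCs belong to the class in late-replicating constant timing regions (CTR, 42 of the 107), whereas *Csmd2*, the third family member on chromosome 4, belongs to the class in timing transition regions (TTR, 65 of 107).

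The first question was whether Aph raised the density of junctions in the Xrcc4/p53-deficient cells. With baits on other chromosomes, *Csmd1* density in Aph was 1.71 and 1.79 in the 2 chr12 libraries. It was 1.37, 2.35 and 1.34 in the 3 chr14 libraries, and 0.457 in the 1 chr6 library. In DMSO, the corresponding densities were 0.615 and 0 for chr12, 0 in all 3 chr14 libraries, and 0 and 0.674 for chr6. All 5 Aph libraries with the chr12 and chr14 baits thus lay above every DMSO library of these baits, and the single chr6 Aph library lay between its 2 DMSO libraries.

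Over the baits, *Csmd1* density was 1.28 higher in Aph than in DMSO, from 33 junctions in 6 Aph libraries against 6 in 7 DMSO libraries (two-sided exact permutation within baits, p = 0.00833, adjusted p = 0.0491 over 106 RDC windows). The pooled ratio was 5.75, with a 95% interval of 2.38 to 16.8 that covers counting error only. Of the 106 windows tested, 18 rose at this threshold, or 17.0%, and *Csmd1* had the 11th largest difference. The call rested on the full set of libraries and was lost when labels were permuted within runs (1.31, exact permutation, adjusted p = 0.0561) and under 8 further settings. With the chr14 bait left out the difference was 0.914 (exact permutation, p = 0.167, adjusted p = 0.315). With any 1 of the 13 libraries left out the adjusted p was 0.0535 to 0.0921, while the difference stayed between 1.10 and 1.59. The 3 chr14 DMSO libraries had 699 to 918 junctions off chromosome 14, where 3 junctions would have given densities of 3.27 to 4.29, so each zero alone gives little information. Pooled, they had 0 *Csmd1* junctions for 2416 off chromosome 14, where 3 junctions would have given 1.24. Within the single baits the differences were 1.44 (chr12), 1.69 (chr14) and 0.120 (chr6), with exact permutation p of 0.333, 0.1 and 1.0.

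*Csmd3* did not pass the test in the same cells. In Aph its density was 0 and 0.163 with the chr12 bait, 0, 0.939 and 0 with chr14, 0.457 with chr6, and 0, 0.483 and 0 with chr8. In DMSO it was 0.923 and 0 with chr12, 0 in the 3 chr14 libraries, 0.164 and 0.337 with chr6, and 1.41, 0 and 0 with chr8. The treatments overlapped with the chr8, chr12 and chr14 baits, and the single chr6 Aph library lay above both chr6 DMSO libraries. The difference was -0.0502, from 6 junctions in 9 libraries against 7 in 10 (exact permutation, p = 0.869, adjusted p = 0.878), and the pooled ratio was 0.814 with an interval of 0.226 to 2.83, which overlaps that of *Csmd1*. Whether the members differ in their response to Aph was not tested.

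The other 39 CTR windows tested had a median difference of 0.716 and a median ratio of 2.85, and 10 of them rose. Over all 106 windows the medians were 0.385 and 2.18, and the difference was above 0 in 92 (86.8%). *Csmd2*, whose window lies in the gene over 56.8% of its length, differed by 0.0984, from 19 and 15 junctions (exact permutation, adjusted p = 0.820). Pooled over the Aph libraries, *Csmd1* stood at 1.49 junctions per 1000, rank 11 of 107 RDC windows and 3.85 times the mean of 2361 tiles of 1 Mb outside these windows. The paper counts more RDCs than these 107, so a tile may lie in another RDC. *Csmd3* stood at 0.223, the lowest of the 107 windows and 0.575 times the mean tile. In the DMSO libraries of this test the pooled densities were 0.259 for *Csmd1* (rank 83) and 0.273 for *Csmd3* (rank 75). In neither treatment did *Csmd3* reach the mean tile.

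A further 7 DMSO libraries with the chr6 bait, on 6 other runs, were not part of the test. Their labels lack the collection name that the chr6, chr8 and chr12 libraries of the test carry, as do those of the chr14 libraries of deficient cells, which were in the test as the only ones with that bait. They had *Csmd1* junctions in all 7. Their densities ran from 0.213 to 0.942 (median 0.633), and their mean of 0.635 ± 0.273 (SD, n = 7) lay above the 0.457 of the single chr6 Aph library. *Csmd3* junctions occurred in 3 of these 7, with a mean density of 0.142 ± 0.208. With these libraries pooled in, the DMSO density was 0.500 for *Csmd1*, from 27 junctions in 14 libraries (rank 29), and 0.213 for *Csmd3*, from 12 in 17 (rank 103), and the difference between Aph and DMSO for *Csmd1* was 1.14 (exact permutation, adjusted p = 0.0483).

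**Figure D1:**
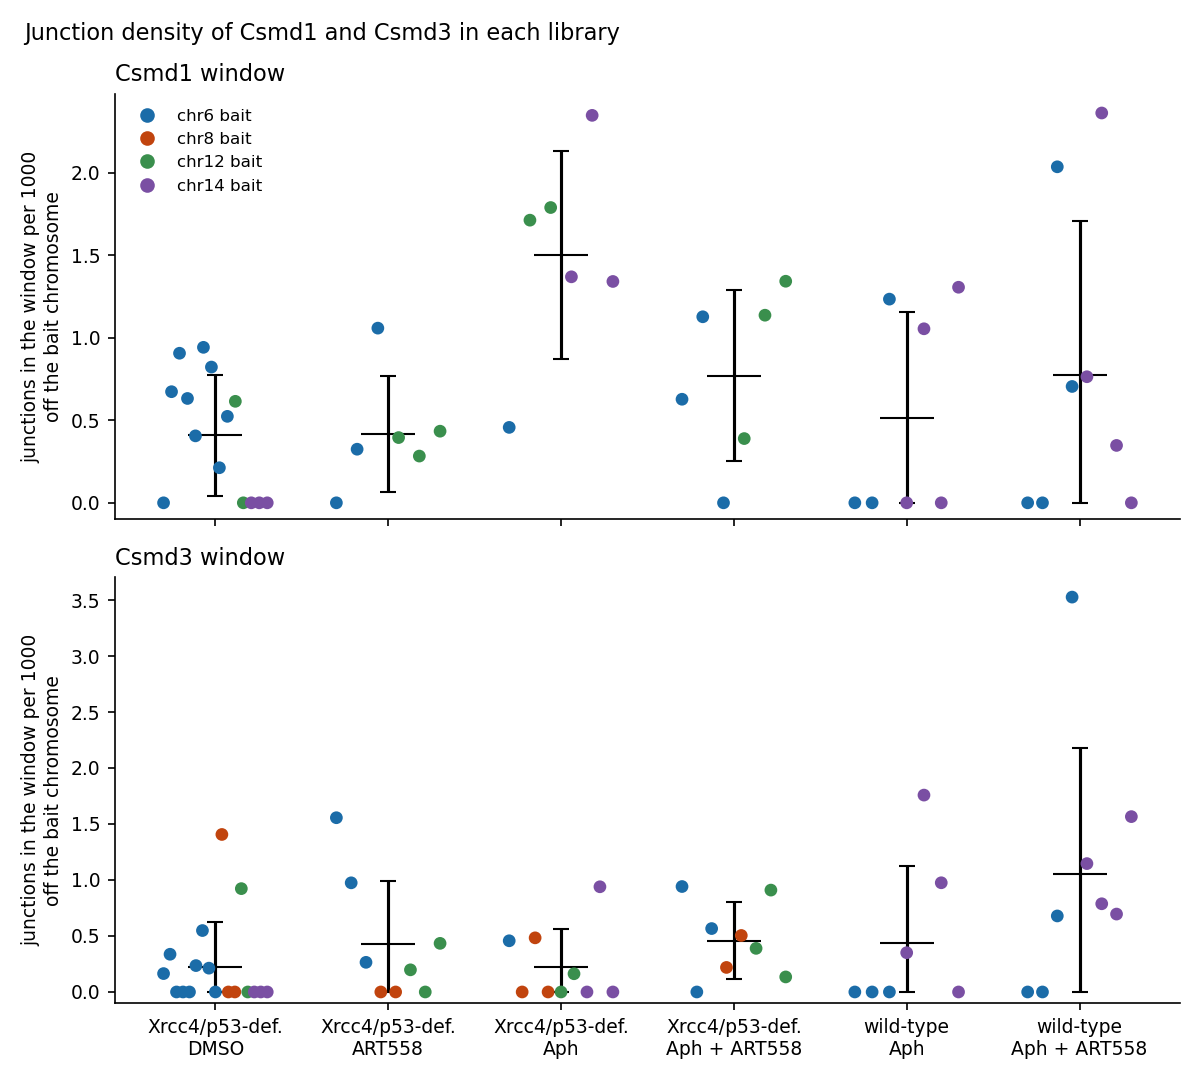
Junction density of *Csmd1* (top, chr8 bait left out) and *Csmd3* (bottom) in each library, in junctions per 1000 off the bait chromosome, by genotype and treatment and coloured by bait; black bars are means with 1 SD, drawn down to 0 at the lowest. In the *Csmd1* panel 5 of the 6 Xrcc4/p53-deficient Aph libraries lie above every DMSO library, whereas the *Csmd3* panel shows overlapping groups throughout.

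The second question was what Pol θ inhibition did to these densities. Under Aph plus ART558, *Csmd1* density was 0.389, 1.14 and 1.34 with the chr12 bait and 0.628, 1.13 and 0 with the chr6 bait. Against the 2 chr12 and 1 chr6 Aph libraries above, it was 0.440 lower, from 24 against 23 junctions (exact permutation, p = 0.35, adjusted p = 0.599), and the ratio was 0.607 with an interval of 0.328 to 1.12. With 1 library left out the difference ran from -0.795 to -0.237. All 3 chr12 libraries with both drugs lay below the 2 with Aph alone, but they were sequenced on another run. In the chr6 libraries, which share a run, the mean of 0.585 with both drugs lay above the single Aph value.

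For *Csmd3* the difference had the other sign, and neither member passed the test. Its densities with both drugs were 0.389, 0.910 and 0.134 (chr12), 0.942, 0 and 0.566 (chr6), and 0.219 and 0.505 (chr8). They overlapped the Aph values with each bait. The difference was 0.238, from 15 against 4 junctions (exact permutation, p = 0.2075, adjusted p = 0.488), the 4th highest of 107 windows, of which 17.8% had a difference above 0. Both signs turned under an alternative, to -0.0556 for *Csmd3* with a window of 0.5 Mb and to 0.128 for *Csmd1* within runs. None of the 107 windows passed the threshold in this comparison, and at an unadjusted p of 0.05, 21 were lower (19.6%) and 0 higher. The other 40 CTR windows tested had a median difference of -0.386, with 5 above 0.

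For ART558 without Aph, neither member differed detectably from DMSO. *Csmd1* density with ART558 was 0.395, 0.283 and 0.434 (chr12) and 0, 0.325 and 1.06 (chr6). It differed from DMSO by 0.0939 (exact permutation, p = 0.68, adjusted p = 0.997), and the pooled ratio was 1.57 with an interval of 0.518 to 5.27. *Csmd3* density was 0.198, 0 and 0.434 (chr12), 1.56, 0.975 and 0.265 (chr6) and 0 in both chr8 libraries, a difference of -0.0128 (exact permutation, p = 0.96). Within baits the *Csmd3* difference was -0.251 (chr12), 0.681 (chr6) and -0.469 (chr8), and the pooled ratio was 1.37 with an interval of 0.472 to 4.25. Of the 98 windows tested, 60.2% had a difference above 0. The deposited list of the chr6 library at 1.56 ends within a line, so it may be incomplete, and without it the difference was -0.145 for *Csmd3* and 0.196 for *Csmd1* (exact permutation, p = 0.653 and 0.417). The 3 chr6 libraries of *Csmd3* spread over a wider range than the 2 chr6 DMSO libraries and 2 of them lay above both. Comparing both drugs with ART558 alone, *Csmd1* was 0.355 higher (exact permutation, p = 0.22, adjusted p = 0.721) and *Csmd3* 0.0297 higher (p = 0.888). None of 98 and 107 windows passed the threshold in these comparisons. At an unadjusted p of 0.05, 2 windows were higher and 2 lower with ART558 against DMSO, and 4 were higher (3.74%) and 3 lower (2.8%) with both drugs against ART558.

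In wild-type cells the 2 members had equal pooled densities under Aph, 0.590 junctions per 1000 each from 8 junctions (interval 0.255 to 1.16). *Csmd1* density under Aph was 0, 1.05, 0 and 1.31 with the chr14 bait and 0, 0 and 1.23 with the chr6 bait. With both drugs it was 0.764, 2.36, 0.348 and 0 (chr14) and 0, 0, 2.04 and 0.705 (chr6). The groups overlapped, and the difference of 0.276 did not pass the test (exact permutation, p = 0.541, adjusted p = 0.884 over 67 windows). It ran from 0.0271 to 0.441 with 1 library left out.

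*Csmd3* density in wild-type cells was 0.351, 1.76, 0.975 and 0 under Aph with the chr14 bait, and 0 in all 3 chr6 libraries. With both drugs it was 1.15, 0.788, 0.696 and 1.57 (chr14) and 0, 0, 0.679 and 3.53 (chr6). The difference was 0.635 (exact permutation, p = 0.247, adjusted p = 0.830), and it ran from 0.256 to 0.829 with 1 library left out. With both drugs *Csmd3* ranked 11th of the 107 windows at a pooled 1.09, or 2.73 times the mean tile. All 6 chr6 junctions with both drugs, from 2 libraries, lay within 3 bases of each other at chr15:47811788, and counting each position and strand once per library left 14 of 20 junctions with both drugs and 4 of 8 with Aph. None of the 67 windows passed the threshold, and at an unadjusted p of 0.05, 3 were higher (4.48%) and 1 lower.

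Genotypes were tested in the 2 arms with several libraries of each. All wild-type libraries share a run that holds no Xrcc4/p53-deficient library. The deficient cells are also an ES cell-derived line, and the wild-type cells primary cells from embryos. Genotype, run and cell source thus cannot be told apart. Under Aph with the chr14 bait, *Csmd1* density was 1.10 lower in wild-type than in Xrcc4/p53-deficient cells, 0.590 ± 0.689 (SD, n = 4) against 1.69 ± 0.573 (n = 3; exact permutation, p = 0.0571, adjusted p = 0.16 over 42 windows). All 4 wild-type values lay below the 3 of the deficient cells. This depended on the total, since with all junctions as the total the *Csmd1* difference turned to 0.0166. *Csmd3* was 0.458 higher in wild-type cells in the same libraries (exact permutation, p = 0.457), with overlap. The median difference over the 42 windows was -0.715, 12 of them were lower and 0 higher at an unadjusted p of 0.05, and none passed the adjusted threshold. In the remaining shared arm, Aph with the chr6 bait, the single deficient library had a density of 0.457 for both members, against 0, 0 and 1.23 for *Csmd1* and 0 in all 3 wild-type libraries for *Csmd3*. With both drugs and the chr6 bait the differences were 0.100 for *Csmd1* and 0.549 for *Csmd3* (exact permutation, p = 0.829 and 0.886). None of the 27 windows passed there, with 2 lower (7.41%) and 0 higher at an unadjusted p of 0.05. The effect of ART558 under Aph was 0.716 higher in wild-type than in deficient cells for *Csmd1* and 0.397 for *Csmd3*, and this difference of effects was not detectable (permutation within genotype and bait, p = 0.215 and 0.568, adjusted p = 0.430 and 0.568).

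Across the groups of genotype, treatment and bait, the pattern of *Csmd1* was most like those of *Magi2*, a synaptic scaffold gene (Pearson's r = 0.895 over 14 groups), *Prkg1*, a cGMP-dependent protein kinase (0.872 over 14), and *Grm8*, a metabotropic glutamate receptor (0.854 over 8). *Csmd2* was 73rd of 106 windows in that order (r = 0.132) and *Csmd3* 83rd (r = 0.0458). For *Csmd3* the nearest were the adhesion receptor gene *Adgrl2* (r = 0.603 over 18 groups), the receptor phosphatase gene *Ptprk* (0.583) and the netrin receptor gene *Unc5c* (0.568), with *Csmd2* 17th of 106 (r = 0.284) and *Csmd1* 28th. These r values are a description over groups that share libraries and totals.

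The chr8 bait gave 199 of the 317 *Csmd1* junctions. Here the density was taken per 1000 junctions over 1 Mb from the break, and the intervals in brackets are exact binomial 95% intervals. In DMSO it was 1.14, 0.995 and 0 in the 3 libraries, from 2 junctions in all. In Aph it was 21.9 (15.6 to 29.8), 20.6 (15.6 to 26.6) and 14.6 (9.57 to 21.4), from 39, 57 and 26 junctions. Every Aph library lay above every DMSO library, as did 7 of the 9 RDC windows of chromosome 8, or 77.8%. The difference was 18.3 and the pooled ratio 28.7 (7.77 to 240), on the same sequencing run (exact permutation, p = 0.1, the smallest that 3 libraries against 3 allow).

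With ART558 alone the density was 1.22 and 1.35, from 1 and 2 junctions, close to DMSO. With both drugs it was 6.99 (4.87 to 9.71) and 6.72 (4.51 to 9.64), from 35 and 29 junctions. Another library with both drugs, below the depth minimum and on an earlier run, had 8 junctions and a density of 20.9 (9.06 to 40.7), inside the Aph range. Without it, both drugs lay 12.2 below Aph alone (exact permutation, p = 0.1, the smallest possible), and with it the groups overlapped and the difference was -7.50 (p = 0.3). All 9 RDC windows of chromosome 8, or 100%, lay lower with both drugs in every library of sufficient depth. The Aph libraries and the 2 deeper libraries with both drugs were on different runs, and per the study the gain of this chromosome was no longer seen under Aph plus ART558, so drug, run and copy number cannot be told apart in this bait.

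The difference depended on the total. Taken as a share of the junctions on chromosome 8 over 1 Mb from the break, *Csmd1* held 9.01%, 8.11% and 6.22% in the Aph libraries, 7.90% and 8.29% in the 2 libraries with both drugs, and 18.2% in the shallow one. The groups overlapped on this scale. In DMSO the shares were 0.588%, 0.552% and 0%, and with ART558 alone 1.39% and 1.96%, all below every library with Aph.

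Of the 9 RDC windows on chromosome 8, *Csmd1* had the highest pooled density under Aph, 19.3, although its centre is 42.7 Mb from the break. The next were *Sgcz*, a sarcoglycan gene 21.3 Mb away, and *1700019L22Rik*, 9.1 Mb away, both at 10.9. With both drugs *Csmd1* again stood first at 6.87, ahead of *Tenm3*, a teneurin gene 11 Mb away, at 2.68. In DMSO it shared the lowest place at 0.672, while *Tenm3* stood first at 3.69. The 32 tiles of 1 Mb outside the RDC windows that lie beyond *Sgcz* on the far side of the break, where *Csmd1* also lies, averaged 1.42 under Aph and 0.607 with both drugs. *Csmd1* exceeded these by 13.6 and 11.3 times, and in DMSO it stood at 0.615 times their mean.

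**Figure D2:**
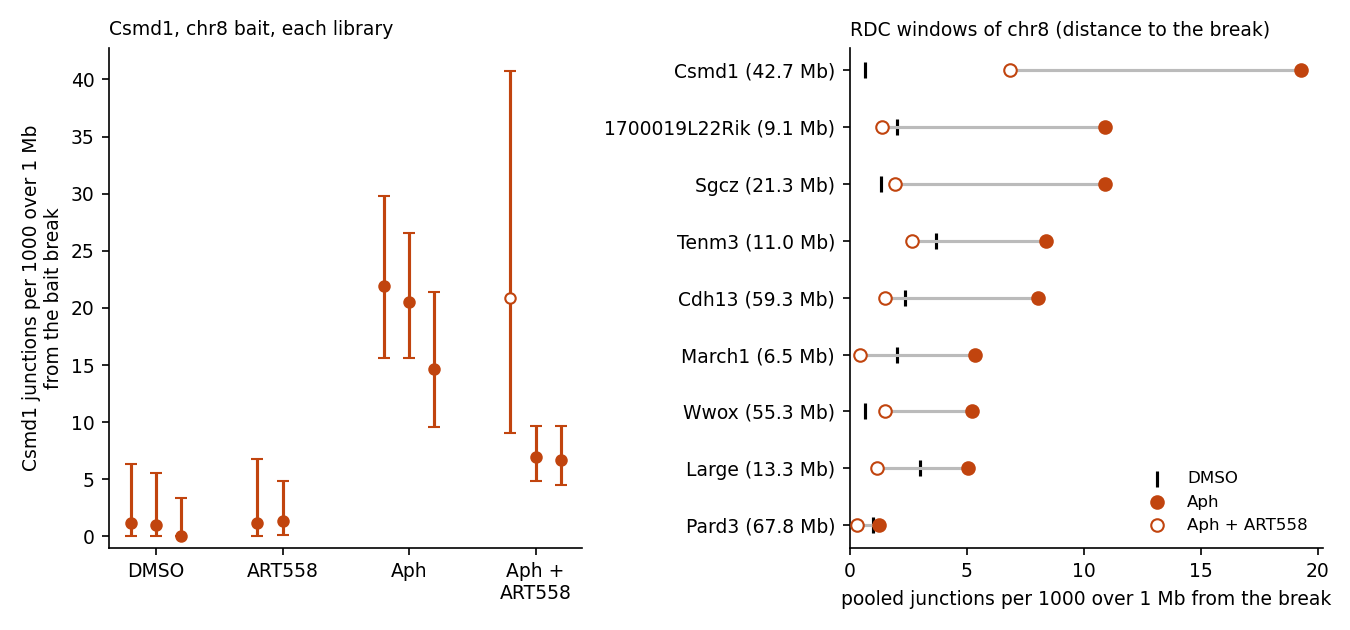
Left, *Csmd1* junctions per 1000 over 1 Mb from the chr8 bait break in each library with exact binomial 95% intervals; the open point is the library below the depth minimum, and an ART558 library with 28 such junctions and none in *Csmd1* is not drawn. Right, pooled density of the 9 RDC windows of chromosome 8 by treatment, with the distance from window centre to break, where *Csmd1* is highest under Aph (19.3) and under Aph plus ART558 (6.87) and shares the lowest place in DMSO (0.672).

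Junctions carry a strand. A plus-strand prey is read from the joint towards higher coordinates and a minus-strand prey towards lower ones, so they mark the opposite ends of a break. With the chr8 bait under Aph, 88 of 122 *Csmd1* junctions were on the plus strand, 72.1% (63.3 to 79.9), and the 3 libraries gave 71.8%, 73.7% and 69.2%. With both drugs 44 of 72 were, 61.1% (48.9 to 72.4), and the libraries gave 62.5%, 65.7% and 55.2%. The other chromosome 8 junctions over 1 Mb from the break were 50.7% plus under Aph and 50.6% with both drugs. The *Csmd1* share was the higher one in 6 of 6 libraries, by 15 ± 7.67 percentage points (SD; exact sign-flip permutation, p = 0.03125, the smallest possible, adjusted p = 0.0469 over 3 such comparisons within libraries, all chosen after the values were seen).

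With baits on other chromosomes the balance lay on the other side. In Xrcc4/p53-deficient cells 32 of 94 *Csmd1* junctions were on the plus strand, 34.0% (24.6 to 44.5). It was 11 of 33 under Aph, 11 of 24 with both drugs and 10 of 37 without Aph. Wild-type cells had 10 of 24. *Csmd3* had 29 of 43 plus-strand junctions in deficient cells, 67.4% (51.5 to 80.9), and 15 of 28 in wild-type cells. No treatment difference in strand passed a test within baits. With the chr8 bait left out, the plus-strand share of *Csmd1* was 11 of 33 in Aph against 1 of 6 in DMSO, 16.7 points higher (exact permutation, p = 0.502), and 11 of 24 with both drugs against 5 of 23 with Aph in the chr6 and chr12 baits, 24.1 points higher (p = 0.15, adjusted p = 0.6). The chr8 bait alone gave differences of -27.9 points, from only 2 DMSO junctions, and -11.0 points (exact permutation, p = 0.1 for both, the smallest possible). This bait could therefore not pass, and each of its Aph libraries had a higher plus-strand share than each library with both drugs. All baits pooled gave 26.4 points (exact permutation, p = 0.0715, adjusted p = 0.286 over 4 comparisons) and -6.85 points (p = 0.415), values that mix baits of opposite balance and that ran from 13.4 to 35.3 and from -11.7 to -0.663 points with 1 library left out. For *Csmd3* the differences were -4.76 and -21.7 points (exact permutation, p = 0.921 and 0.376), and the latter ran from -46.7 to -11.4 points with 1 library left out.

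The strands also differed in place. With baits on other chromosomes, the minus-strand *Csmd1* junctions of deficient cells had their median 166 kb below the window centre (-166 kb) and the plus-strand junctions 132 kb above it. With the chr8 bait under Aph the medians were 138 kb for the minus strand and 202 kb for the plus strand, both above the centre, and 73 of 88 plus-strand junctions lay there. With both drugs the medians were -147 kb and 222 kb. The order of minus below plus held in 7 of 7 libraries with both drugs that had both strands, by 347 kb on average (exact sign-flip permutation, p = 0.0156, adjusted p = 0.109 over 7 comparisons), and in 5 of 6 with Aph, by 174 kb (p = 0.281, adjusted p = 0.583). Neither passed after adjustment. For *Csmd3* the pooled medians of deficient cells were in the same order, -142 kb for the minus strand and 136 kb for the plus strand. Within libraries plus lay above minus in 2 of 3 DMSO libraries, by 166 kb on average, in 0 of 3 with both drugs and in 1 of 3 wild-type libraries (exact sign-flip permutation, adjusted p = 0.583 to 0.75).

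**Figure D3:**
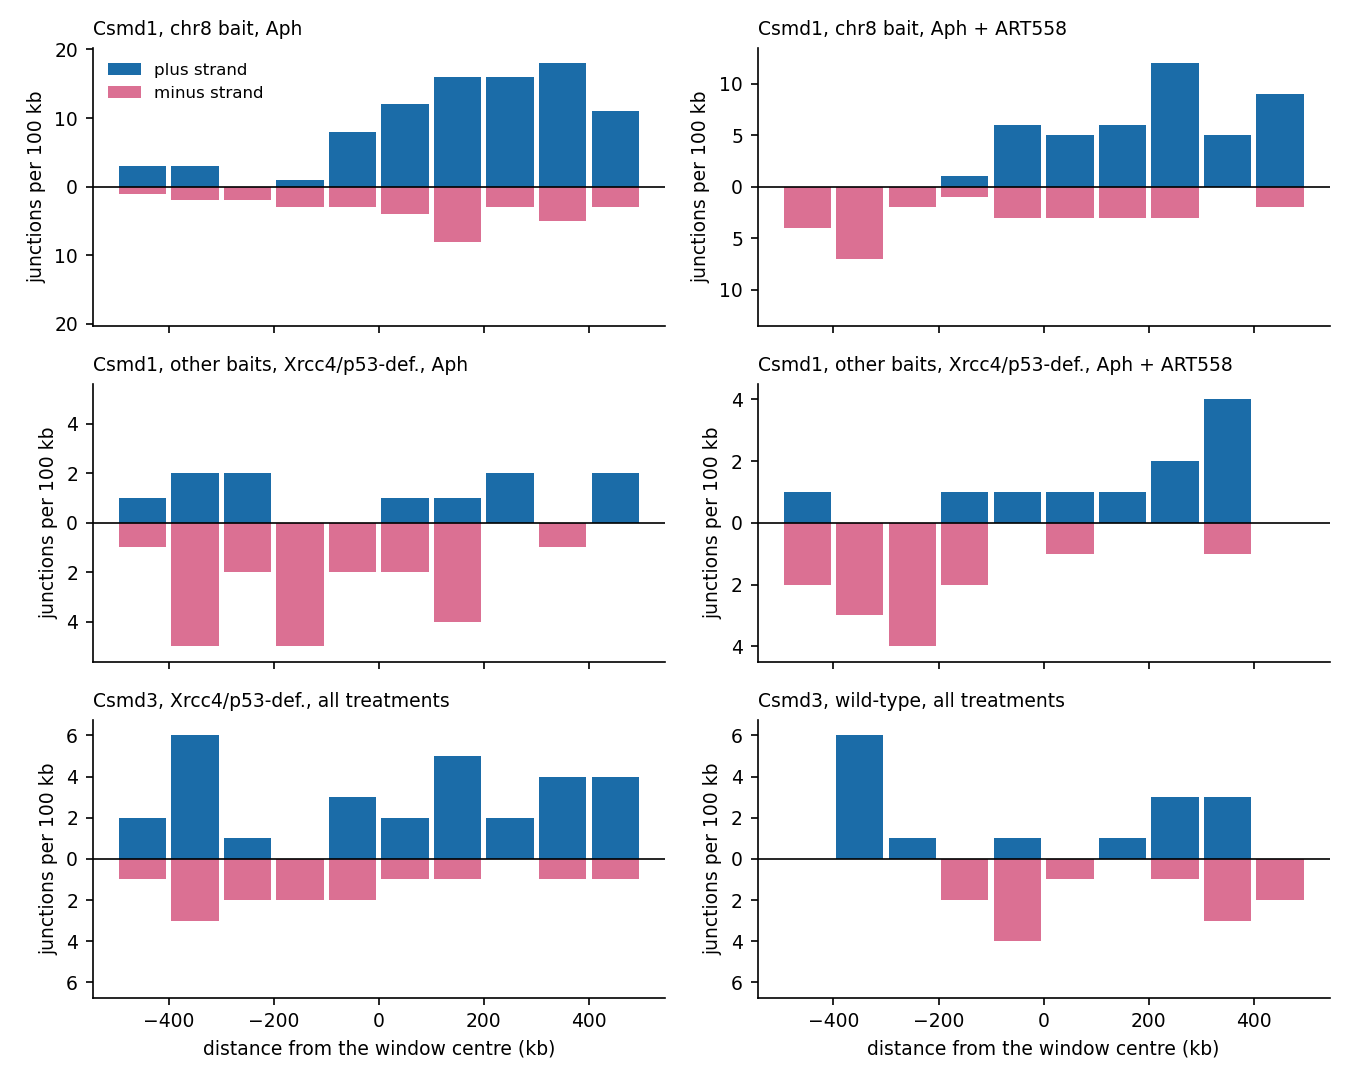
Junctions per 100 kb along the *Csmd1* and *Csmd3* windows, by distance from the window centre in kb, with plus-strand junctions drawn upwards and minus-strand junctions downwards; each panel has its own scale. With the chr8 bait under Aph, 73 of 88 plus-strand junctions lie above the centre, and with baits elsewhere the minus-strand junctions of *Csmd1* in Xrcc4/p53-deficient cells lie mostly below it, with a median of -166 kb.

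Repeats at 1 position were few in *Csmd1*, whose 317 junctions fell on 291 positions, 24 of them used more than once, at most 3 times, and 0 of them in more than 1 library. The repeats lay mostly in 1 arm, since the 72 junctions of the chr8 bait with both drugs fell on 57 positions, counted once per library and strand, and the 122 under Aph on 121. The 41 insertions of that arm fell on 32 positions. *Csmd3* had 71 junctions on 56 positions, 11 used more than once. Under Aph the *Csmd1* junctions of the chr8 bait spanned 973316 bases, whereas the 2 junctions of the wild-type chr6 libraries under Aph lay within 7 bases.

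The joint between bait and prey was read from the sequenced fragment. The ends either share bases (microhomology), meet directly, or have bases inserted between them. The joints below are shown because they are examples of these classes. In the first set the capitals mark the 2 bases that bait and prey share, at chr8:16787515, minus strand, in an Aph library with the chr8 bait.
joint: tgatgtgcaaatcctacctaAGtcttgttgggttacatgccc
bait reference: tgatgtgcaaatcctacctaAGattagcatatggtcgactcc
prey reference: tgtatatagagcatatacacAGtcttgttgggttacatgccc
In the second, from a library with both drugs, the bait ended 69 bases before the break and met *Csmd1* directly at chr8:16764578, plus strand, with no capitals.
joint: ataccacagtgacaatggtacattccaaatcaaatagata
In the third, also with both drugs, the capitals mark 9 bases present in neither reference at the joint, at chr8:16419527, minus strand.
joint: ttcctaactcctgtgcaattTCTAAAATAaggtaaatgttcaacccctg
The last is the *Csmd3* joint found in 2 of the 4 wild-type chr6 libraries with both drugs, at chr15:47811788, plus strand, with 3 shared bases in capitals.
joint: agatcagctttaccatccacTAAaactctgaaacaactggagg

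Under Aph the joints of *Csmd1* were mostly microhomologies of a few bases. With the chr8 bait, 90 of 122 junctions had a microhomology (median 2.5 bp), 10 were direct and 22, or 18.0% (11.7 to 26), had inserted bases. Of the 100 junctions with 0 to 10 bp, 76 shared 2 or more. The other chromosome 8 junctions over 1 Mb from the break had much the same make-up, with 15.1% insertions and 75.1% of the rest sharing 2 or more bases.

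With both drugs the make-up differed. Only 21 of the 72 *Csmd1* junctions of the chr8 bait had a microhomology, 10 were direct and 41, or 56.9% (44.7 to 68.6), had inserted bases. The libraries gave 25%, 54.3% and 69.0% insertions, against 17.9%, 19.3% and 15.4% under Aph, so each library with both drugs lay above each library with Aph alone. With the chr6 and chr12 baits, on other chromosomes, 13 of 24 *Csmd1* junctions with both drugs had insertions, 54.2% (32.8 to 74.4), and 3 of 23 under Aph. The insertions had a median of 8 bp and reached 29 bp with both drugs, and a median of 4 bp and at most 22 bp under Aph.

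Over both members, 57 of 111 junctions had insertions with both drugs (51.4%) and 25 of 149 with Aph (16.8%), a difference of 34.6 points (exact permutation within baits, p = 0.005, adjusted p = 0.015 over 3 comparisons). The insertion share was tested after it had been seen. With any 1 library left out the adjusted p stayed between 0.00625 and 0.0375. With the chr8 and chr12 baits both treatments were on different runs, so drug and run cannot be told apart there. Only the chr6 libraries share a run, where 6 of 12 with both drugs stood against 0 of 4 with Aph, 50 points apart (exact permutation, p = 0.25, the lowest these 4 libraries allow). ART558 without Aph gave 4 of 23 against 1 of 15 in DMSO (exact permutation, p = 0.653), and with the 7 further chr6 DMSO libraries the DMSO count was 7 of 41, 17.1% against 17.4% (p = 0.990). Wild-type cells had 14 of 36 with both drugs and 2 of 16 with Aph, 26.4 points more (exact permutation, p = 0.0796, adjusted p = 0.119). *Csmd3* contributed little to the deficient cells' result, with 3 of 15 against 0 of 4, and most to the wild-type one, with 9 of 20 against 0 of 8.

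**Figure D4:**
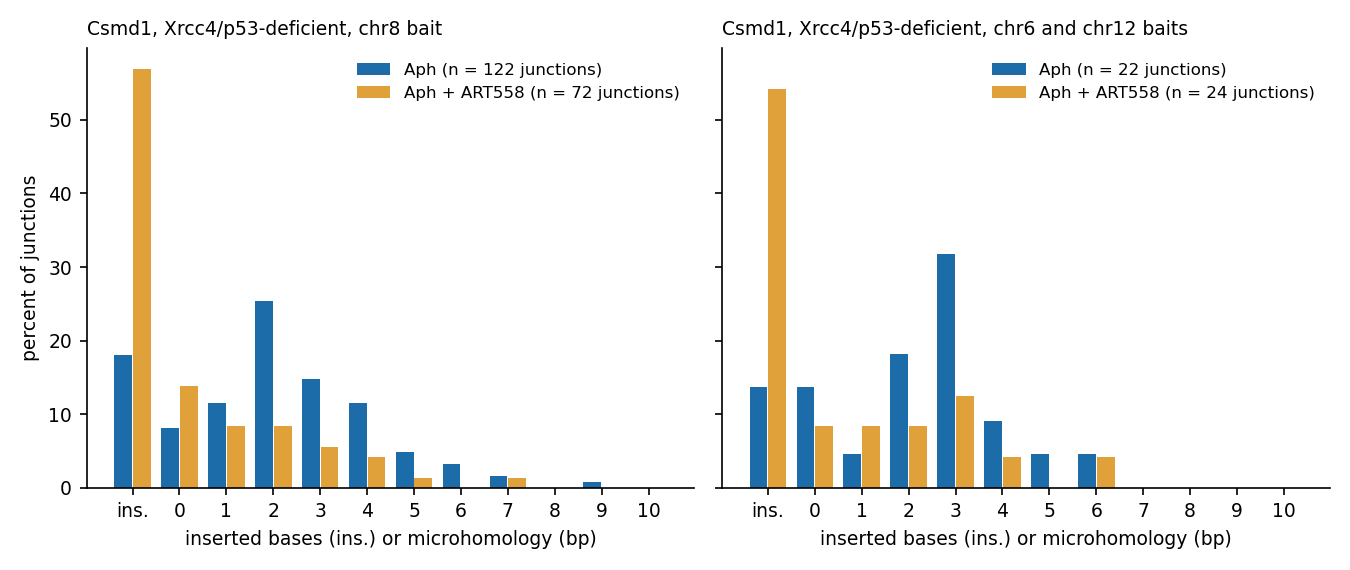
Share of *Csmd1* junctions with inserted bases (ins.) or with 0 to 10 bp of microhomology, in percent, for the chr8 bait (left) and the chr6 and chr12 baits (right) in Xrcc4/p53-deficient cells; bars pool the libraries of a treatment, and a junction with over 10 bp is not drawn. Insertions make up 56.9% of the chr8-bait junctions with both drugs and 18.0% with Aph.

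The excess was compared with the rest of the same libraries. In the 6 libraries with both drugs and at least 5 *Csmd1* junctions, the insertion share of *Csmd1* exceeded that of the other junctions over 1 Mb from the break by 31.7 ± 20.2 points (SD), in 6 of 6 libraries (exact sign-flip permutation, p = 0.03125, the smallest possible, adjusted p = 0.0469 over the 3 comparisons within libraries). Set against the other chromosome 8 junctions alone, the chr8-bait libraries gave 25% against 38.9%, 54.3% against 20.3% and 69.0% against 20.9%, so the shallow library went the other way. In the 6 Aph libraries the excess was 0.687 ± 8.77 points, above 0 in 5 of 6 (exact sign-flip permutation, p = 0.906). The exception was a chr14 library with 0 insertions among 5 *Csmd1* junctions. Other RDC windows also had more insertions with both drugs, 29.9% of 2950 junctions against 15.3% of 2872 under Aph, whereas all other junctions over 1 Mb from the break had 16.4% and 13.0%. Among the 53 windows with 20 or more junctions under both drugs *Csmd1* had the highest share, 56.3%, against 4% to 50% in the others (median 25.1%), and among 46 windows under Aph it was 17th with 17.2%. Counting each position once per library, 44 of the 80 positions under both drugs held an insertion, 55.0%. Whether *Csmd1* differs from the other RDC windows was not tested.

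**Figure D5:**
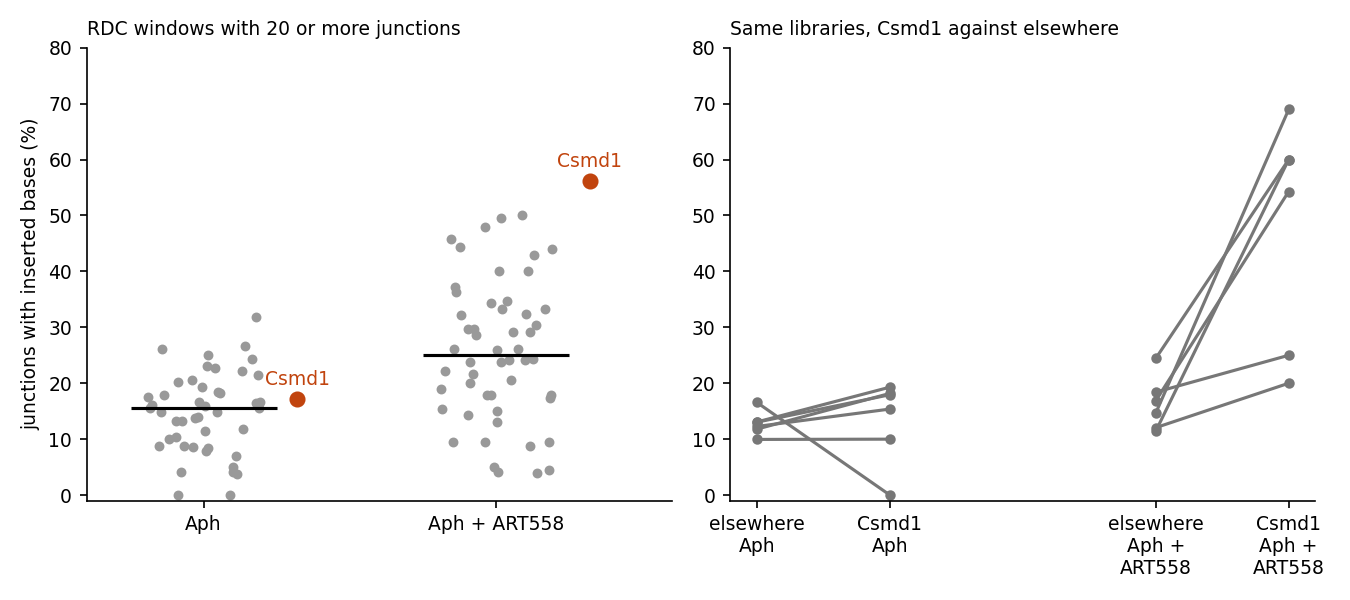
Left, share of junctions with inserted bases in each RDC window with 20 or more junctions, in percent, in Xrcc4/p53-deficient cells with Aph or Aph plus ART558; lines are medians of the grey points, and *Csmd1* is drawn beside them. Right, the same share within single libraries for all other junctions over 1 Mb from the break and for *Csmd1*, joined by a line per library; *Csmd1* lies higher in 5 of 6 Aph libraries and in 6 of 6 with both drugs.

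Direct joining was taken as the share of 0 bp among junctions with 0 to 10 bp of microhomology, insertions left out. Over both members it was 19 of 54 (35.2%) with both drugs and 14 of 123 (11.4%) with Aph, 23.8 points more (exact permutation within baits, p = 0.015, adjusted p = 0.045 over 3 comparisons). The libraries did not all follow, since *Csmd1* with the chr8 bait had 4 of 6, 6 of 16 (37.5%) and 0 of 9 direct joints with both drugs, the first being the shallow library, against 12.5%, 6.52% and 13.6% under Aph. On the run shared by the chr6 libraries it was 2 of 6 against 0 of 4 (exact permutation, p = 0.5). It was 7 of 19 with ART558 and 0 of 14 in DMSO, 36.8 points more (exact permutation, p = 0.031, adjusted p = 0.0465), and 2 of 34 in DMSO with the 7 further libraries (adjusted p = 0.0310). This call was lost when labels were permuted within bait and run (43.8 points, exact permutation, adjusted p = 0.12). Wild-type cells went the other way, with 5 of 22 with both drugs and 6 of 14 with Aph (-20.1 points, exact permutation, p = 0.359, and -43.9 to -10.6 points with 1 library left out). Both calls depended on the handling of insertions. With insertions counted among the junctions that were not direct, the differences were 7.66 and 30.4 points (exact permutation, adjusted p = 0.231 and 0.168). The call also rested on single libraries, since leaving out 1 library took it away in 4 of 15 and 10 of 16 cases. All other junctions over 1 Mb from the break had 33.2% direct joints with both drugs, 24.9% with Aph, 35.0% with ART558 and 19.99% with DMSO. In the other RDC windows direct joints made up 27.1% with both drugs, 14.3% with Aph, 36.1% with ART558 and 16.6% with DMSO. The other distant chromosome 8 junctions of the chr8 bait had 26.9% with both drugs and 10.4% with Aph. Whether the members differ from these was not tested.

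The bait end was measured at the chr8 bait as the number of bases between the break and the last bait base in the joint. Its median for *Csmd1* junctions was 10 bases under Aph, with 10, 11 and 9 in the libraries, and 37 with both drugs, with 34, 35 and 48. The other distant chromosome 8 junctions had medians of 14 and 41 in the same libraries, and 34 with ART558 alone. The bait end of *Csmd1* joints thus moved with that of the rest of the chromosome. The deeper libraries with both drugs were on another run than the Aph libraries, and the part of the run in this difference was not tested.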

How the data were processed

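The authors aligned LAM-HTGTS reads to GRCm38/mm10 with Bowtie2 in the HTGTS pipeline and deposited 1 list per library. The deposited values are coordinates, strands and positions of bait and prey on the read for each junction, with no normalization. Here, junctions were counted in 1 Mb windows around the listed RDC positions with Python 3.11.15, NumPy 2.4.6, pandas 2.3.3 and SciPy 1.17.1, and figures were drawn with Matplotlib 3.10.9. Libraries needed 500 junctions off the bait chromosome. Density tests permuted treatment labels over libraries within baits, exactly and two-sided, with Benjamini-Hochberg adjustment over windows with at least 10 junctions and a threshold of 0.05, and were tested on simulated data. Share intervals are Clopper-Pearson. The reads carry no molecular identifiers and may repeat a molecule, so intervals and limits from 3 counts cover counting error only. The members, lists and tests were chosen with earlier results of these data known. Named besides the members were *Csmd2*, the CTR list, and for each member the 3 windows most alike. Insertions, strand within libraries, strand order, strand by bait and the genotype difference of effects were added after seeing the data. Gene positions came from the GENCODE annotation of GRCm38.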

Additional observations from a re-analysis of the deposited data

Results flagged for a closer look

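The *Csmd3* density of 1 of the 7 DMSO libraries with the chr6 bait outside the tests, replicate 5 in Xrcc4/p53-deficient cells, was 0.549 junctions per 1000. It stood apart from the other 6 by 0.571 of the group's range, from 2 junctions. Replicate 4 of the group also had 2 junctions, at a larger total, and a density of 0.236. Of 8 pairs of member and group that could be tested for such a library, 1 had one. A rate by chance of about 1 in 20 need not hold for densities from counts this small.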

How the results depend on the processing

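Apart from leaving out libraries, 259 alternative values were computed for 26 results, and 213 kept their direction and their side of the threshold, 26 turned and 20 fell short of it. The cause was not tested. The rise of *Csmd1* with Aph (1.28) fell short with a window of 0.5 Mb (0.769, adjusted p = 0.0746), a window of 2 Mb (1.24, 0.116), the gene body (1.13, 0.0833), each position once (1.20, 0.0507), a total over 1 Mb from the break (1.04, 0.0552), permutation within runs (1.31, 0.0561), pooled densities (1.32, 0.0631), the chr14 bait left out (0.914, 0.315) and the replicate block (1.21, 0.184), and adjusted p over all its alternatives ran from 0.0134 to 0.315.
The direction turned for results that had not passed the test. For *Csmd3* with Aph it became 0.0175 (0.5 Mb), 0.0273 (all junctions as total) and 0.0189 (pooled). With both drugs against Aph it became -0.0556 for *Csmd3* (0.5 Mb) and 0.128 for *Csmd1* (within runs). For ART558 against DMSO, *Csmd3* became 0.0916 (2 Mb), 0.0407 (gene body), 0.0110 (total over 1 Mb from the break), 0.127 (all junctions), 0.215 (within runs), 0.00614 (pooled), 0.0241 (permutation across baits) and 0.185 (7 further DMSO libraries), and *Csmd1* became -0.0713 (replicate block) and -0.0482 (7 further DMSO libraries). With both drugs against ART558, *Csmd3* became -0.119 (0.5 Mb), -0.00965 (each position once), -0.429 (within runs) and -0.0381 (replicate block). Between genotypes, *Csmd1* became 0.0166 (all junctions, Aph) and -0.0593 and -0.0882 (0.5 and 2 Mb, both drugs), and *Csmd3* -0.276 (replicate block). With the chr8 bait, both drugs against Aph gave 3.15 per 1000 of the distant chromosome 8 junctions. The plus-strand share of *Csmd1* became -27.9 points for Aph against DMSO (chr8 bait alone) and 24.1 points for both drugs against Aph (chr8 bait left out).
For direct joining, both drugs against Aph fell short with insertions as not direct (7.66 points) and the replicate block (25.6), and ART558 against DMSO with the gene body (25.9), insertions (30.4) and the replicate block (38.5). Permutation across baits left the sizes at 23.8 and 36.8 points, with an adjusted p of 0.0726 for both. Permutation within runs gave 33.3 and 43.8 points (exact permutation, adjusted p = 0.5 and 0.12). The insertion share fell short under the replicate block (33.8, exact permutation, adjusted p = 0.0938) and within runs (50, adjusted p = 0.375). Samples of the same replicate number did not deviate together (mean r -0.0602 to 0.00711 over comparisons). With 4 to 7 such pairs per comparison and few junctions per window, this cannot decide whether the numbers pair the libraries.
Leaving out 1 library gave 1.10 to 1.59 for *Csmd1* and -0.161 to 0.0964 for *Csmd3* with Aph, -0.0447 to 0.219 and -0.145 to 0.152 for ART558 against DMSO, -0.0596 to 0.168 for *Csmd3* with both drugs against ART558, and -0.350 to 0.372 and -0.276 to 0.899 between genotypes with both drugs. Results that had not passed and kept their direction ran from -0.795 to -0.237 and 0.154 to 0.299 for both drugs against Aph in deficient cells, 0.0271 to 0.441 and 0.256 to 0.829 in wild-type cells, and 0.129 to 0.771 for *Csmd3* between genotypes with Aph. It gave 19.9 to 30.5 and 31.3 to 41.2 points for direct joining, -25.0 to 8.57 points for the strand share of *Csmd3* with Aph, and for insertions -1.11 to 17.4 points (ART558 against DMSO) and 13.9 to 38.9 points (wild-type, adjusted p from 0.0331 to 0.433).
Depth limits the single values, since a density of a library rests on 0 to 11 junctions with baits off the window's chromosome.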
